A study of Mus musculus with 14 samples.

Results

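The 10 genes described here act at the G1 checkpoint of the cell cycle, and they are the CDK inhibitors Cdkn1a, Cdkn1b, Cdkn1c, Cdkn2a, Cdkn2b, Cdkn2c and Cdkn2d and the D-type cyclins Ccnd1, Ccnd2 and Ccnd3. They were chosen by name, with earlier results of these data known, and all 10 were found among the 55367 gene symbols of both count tables. Messenger RNA had been sequenced from mouse bone marrow cells depleted of mature lineages (lineage-negative cells, genotype wild-type), grown in IMDM with serum, SCF, IL6 and IL3. Cells of the first experiment carried a pSMAL lentivirus with luciferase (n = 3) or with SETBP1-D868N (n = 3), a mutant form of the nuclear protein SETBP1. In the second experiment all cells carried the SETBP1-D868N lentivirus, the controls included, and were kept for 4 days with DMSO (n = 4) or with 2.5 µM PF-9363 (n = 4), an inhibitor of MYST histone acetyltransferases. The promoter that drives the transgene and the share of cells that carried it are not given in the sources used here. Nor is it given whether the libraries of a group came from separate animals or transductions, so p-values measure only the spread between these libraries, which may be technical.

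As background, D-type cyclins bind the kinases CDK4 and CDK6 in response to growth factors and cytokines. The complexes phosphorylate RB and its relatives, which releases E2F transcription factors and lets cells enter S phase. The INK4 proteins (products of Cdkn2a, Cdkn2b, Cdkn2c and Cdkn2d) bind CDK4 and CDK6 and block them. The CIP/KIP proteins p21, p27 and p57 (products of Cdkn1a, Cdkn1b and Cdkn1c) bind a wider range of cyclin-CDK complexes. Cdkn2a also encodes p19Arf, which stabilises p53 by binding MDM2, from a start site upstream of that of p16Ink4a. In bone marrow, Ccnd2 and Ccnd3 are known for their part in expansion of progenitors, and Cdkn1c and Cdkn2c for their part in restraining division of stem cells.

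Promoter sequences are shown for the inhibitor genes whose transcripts changed at least 2-fold with PF-9363, since 3 of them rose and 1 fell. They are the 250 bases upstream of a RefSeq transcription start in build GRCm38.p6, read 5′ to 3′ on the gene's strand. Of the 10 genes, 7 were matched in the RefSeq table, with 11 start sites. Ccnd1, Ccnd2 and Cdkn1c were not among them. Capitals mark matches, on either strand, to 4 motifs: the E2F core (TTTCCCGC, TTTGGCGC, TTTCGCGC or TTTGCCGC), the GC box (GGGCGG), the CRE core (TGACGTCA), and the p53 response element with 2 adjacent half-sites (20 bases, at most 1 mismatch). Matches of different motifs may overlap.
Cdkn1a, first start site, chr17:29090729-29090978, plus strand: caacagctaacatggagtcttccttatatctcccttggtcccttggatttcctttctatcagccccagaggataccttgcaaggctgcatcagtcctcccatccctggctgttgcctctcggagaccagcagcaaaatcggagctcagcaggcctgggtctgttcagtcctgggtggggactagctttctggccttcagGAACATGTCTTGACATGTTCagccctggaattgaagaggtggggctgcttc
Cdkn2a, first (p19Arf-side) start site, chr4:89294620-89294869, minus strand: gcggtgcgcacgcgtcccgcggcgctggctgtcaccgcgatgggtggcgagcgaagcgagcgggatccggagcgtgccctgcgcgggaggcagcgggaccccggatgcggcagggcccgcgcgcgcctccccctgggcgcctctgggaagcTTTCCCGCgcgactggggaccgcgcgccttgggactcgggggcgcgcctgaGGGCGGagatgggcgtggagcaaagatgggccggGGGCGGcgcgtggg
Cdkn2a, second (p16Ink4a-side) start site, chr4:89282193-89282442, minus strand: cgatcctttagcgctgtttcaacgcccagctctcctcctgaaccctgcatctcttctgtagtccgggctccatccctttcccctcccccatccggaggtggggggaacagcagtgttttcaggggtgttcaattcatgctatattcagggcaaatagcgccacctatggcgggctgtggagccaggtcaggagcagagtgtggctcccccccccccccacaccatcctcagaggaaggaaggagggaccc
Cdkn2b, chr4:89311033-89311282, minus strand: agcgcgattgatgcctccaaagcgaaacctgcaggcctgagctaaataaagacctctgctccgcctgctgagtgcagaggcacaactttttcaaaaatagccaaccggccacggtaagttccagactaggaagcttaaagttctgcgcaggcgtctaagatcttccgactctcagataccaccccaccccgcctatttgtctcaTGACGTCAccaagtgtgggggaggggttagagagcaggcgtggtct
Cdkn2c, first start site, chr4:109666757-109667006, minus strand: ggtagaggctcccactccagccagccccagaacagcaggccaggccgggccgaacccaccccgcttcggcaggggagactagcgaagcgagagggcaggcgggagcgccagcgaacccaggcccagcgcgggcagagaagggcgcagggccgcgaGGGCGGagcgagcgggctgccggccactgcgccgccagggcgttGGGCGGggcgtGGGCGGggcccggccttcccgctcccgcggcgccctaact

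The first Cdkn1a promoter held a match to the p53 element that began 51 bases upstream of the start. Of 32851 mouse promoters of the same length in the table, 25 (0.0761%) held such a match. The promoter of the second Cdkn1a start site (chr17:29093519-29093768), not shown, held no p53 match and had GC boxes at 104 and 46 bases. The first Cdkn2a promoter held an E2F core at 99 bases and GC boxes at 48 and 14 bases upstream. E2F cores stood in 1.86% and GC boxes in 32.7% of all promoters. The second Cdkn2a promoter held none of the motifs. Its GC content was 60.0% with 7 CpG dinucleotides, against 78.4% and 40 in the first promoter and medians of 52.4% and 6 over all promoters. The Cdkn2b promoter held a CRE core at 46 bases, a motif present in 1.55% of promoters. The first Cdkn2c promoter had 3 GC boxes, at 95, 51 and 40 bases, and the second, not shown, held none of the motifs. The E-box CACGTG (6.02% of promoters), CCAAT (33.8%) and TATAAA (12.4%) were also searched on both strands and had no match in the 5 sequences shown. A match describes letters in this window and does not show that a factor binds there.

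The first experiment was sequenced to 60147266 to 68730322 counts per library and the second to 7083731 to 10359093. Values are CPM, read counts relative to the library total, with TMM scaling factors estimated within each experiment. A count of 0 allowed up to 0.0436 to 0.0499 CPM in the first experiment and 0.290 to 0.424 CPM in the second, on unscaled totals and for counting error alone. The blood cell genes Ptprc and Spi1 and the progenitor genes Kit and Cd34 were detected. Cd3e and Cd8a, which mark T cells removed by lineage depletion, had 0 counts in every library of the second experiment and at most 3 in a library of the first. From the same list, Cd4 and Cd79a had at most 12 counts in a library of either experiment. Nkg7 was well detected, with means of 58.0 CPM with luciferase, 80.2 CPM with SETBP1-D868N and 41.5 CPM with DMSO, and was at 1.69 CPM with PF-9363. Transcripts of maturing myeloid cells were detected as well. The second experiment gave Ly6g, a neutrophil gene, a mean of 57.6 CPM with DMSO and 156 CPM with PF-9363.

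With PF-9363, 3 inhibitor genes and 1 D-type cyclin rose. Cdkn2a rose 14.2-fold, Cdkn2b 5.40-fold, Ccnd2 3.64-fold and Cdkn1a 2.40-fold. Cdkn2c fell 6.35-fold, and Cdkn2d and Ccnd3 fell by smaller amounts. Cdkn1b and Ccnd1 did not pass the test, and Cdkn1c had too few counts to be tested. Thus 4 of 9 tested members were called higher and 3 lower (edgeR quasi-likelihood test, Benjamini-Hochberg adjusted p under 0.05). Calls were common in this comparison, with 76% of 13456 genes called, 36.6% higher and 39.4% lower, so the count of called members was close to the background. At least 2-fold changes were called for 5 of the 9 members, against 33.9% of genes, with 4 members higher (15.8% of genes) and 1 lower (18.1%). The groups did not overlap for 7 of 9 members, against 70.3% of genes. The median absolute log2 fold change was 1.26 for the members and 0.65 for all genes tested.

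With SETBP1-D868N, all 10 members passed the test, and none changed 2-fold. Ccnd1 had the largest called fall, 1.67-fold. Cdkn1c, Cdkn2a and Cdkn2c were higher than with luciferase, and the other 7 were lower. In this comparison 47.2% of 15794 genes were called, 24.5% higher and 22.7% lower, and 3.82% were called at 2-fold or more. The groups did not overlap for 8 of 10 members, against 56.7% of genes. The median absolute log2 fold change was 0.25 for the members and 0.19 for all genes. The calls of Cdkn1b, Cdkn1c, Cdkn2b and Ccnd2 did not hold in every fit and are given with those fits. Of the members, 7 were called in both comparisons, 3 in the same direction (Cdkn2a, Cdkn2d and Ccnd3) and 4 in opposite directions (Cdkn1a, Cdkn2b, Cdkn2c and Ccnd2). No test was made between the experiments, which differ in RNA input, library preparation and depth.

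**Figure D1:**
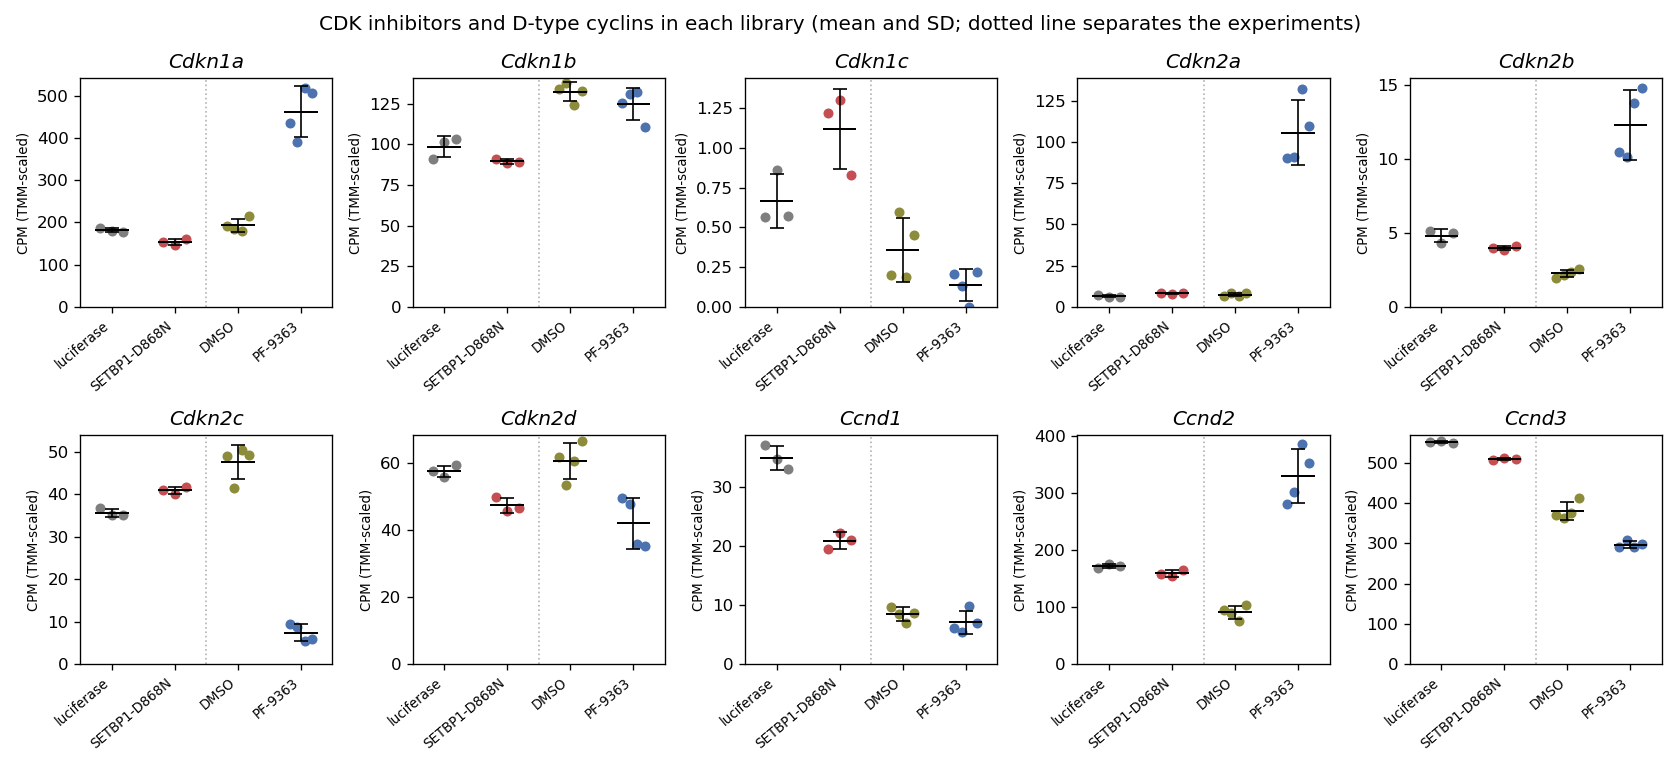
Level of each gene in CPM (linear axes from 0, a separate scale per gene) in every library of the 4 groups. Points are libraries, horizontal lines are means and bars are SD. The PF-9363 points of Cdkn2a, 90.2 to 132 CPM, lie above the DMSO points at 6.36 to 8.36 CPM, and those of Cdkn2c lie below, at 5.44 to 9.46 against 41.6 to 50.5 CPM.

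**Figure D2:**
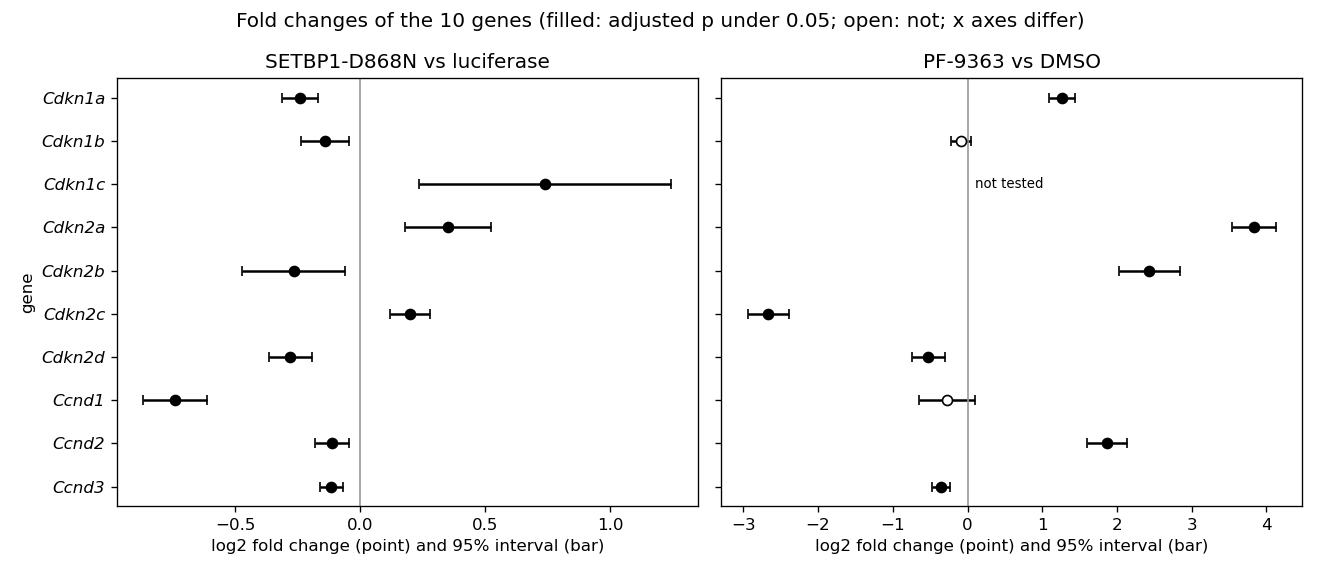
Log2 fold change of each gene (points) with its 95% interval (bars) from the edgeR fit, for SETBP1-D868N against luciferase and for PF-9363 against DMSO, on different x axes. Filled points passed an adjusted p of 0.05. The values run from −0.74 for Ccnd1 to 0.74 for Cdkn1c with SETBP1-D868N and from −2.67 for Cdkn2c to 3.83 for Cdkn2a with PF-9363.

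Among the INK4 genes, Cdkn2a lies on chr4:89274471-89294653 (GRCm38, minus strand) and is kept silent by Polycomb proteins in many dividing cells. Its level was 6.63, 8.36, 6.36 and 8.24 CPM in the DMSO libraries and 90.2, 90.8, 132 and 110 CPM in the PF-9363 libraries. Every PF-9363 library was more than 10 times as high as every DMSO library. The log2 fold change was 3.83 (SE 0.14, edgeR adjusted p 2.56e-14), and only 1.80% of genes tested had a larger absolute change. In the first experiment the level was 7.23, 6.22 and 6.15 CPM with luciferase and 8.49, 8.02 and 8.56 CPM with SETBP1-D868N. The groups did not overlap, and the difference was small beside that with PF-9363 (log2 fold change 0.35, SE 0.079, edgeR adjusted p 0.00282). The table counts one symbol, so transcripts of the p16Ink4a and p19Arf start sites, whose upstream sequences are printed above, cannot be told apart. In bulk samples a change in the number of cells of a type and a change in RNA per cell cannot be told apart either, here and for every gene that follows.

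Cdkn2b encodes p15Ink4b, an inhibitor known for its response to TGF-beta, and lies on chr4:89306299-89311039 (minus strand), 11645 bases from Cdkn2a. It was at 1.98, 2.19, 2.34 and 2.54 CPM with DMSO and at 10.5, 10.2, 13.8 and 14.8 CPM with PF-9363. The groups were well separated (log2 fold change 2.43, SE 0.20, edgeR adjusted p 6.69e-12). The level was 5.14, 4.31 and 4.97 CPM with luciferase and 3.99, 3.88 and 4.11 CPM with SETBP1-D868N, so in that experiment Cdkn2b and its neighbour Cdkn2a were called in opposite directions. The Cdkn2b difference was narrow (log2 fold change −0.27, SE 0.095, edgeR adjusted p 0.0364). Its call was lost in 6 of 13 other fits, among them those without luciferase 1, luciferase 3, SETBP1-D868N 1 or SETBP1-D868N 2 (log2 fold changes of −0.21 to −0.27) and under library-size scaling (−0.22).

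Another 2 genes within 250000 bases of this locus were looked at after their values were seen. Mtap, which encodes an enzyme of methionine salvage, was at 17.9 ± 1.01 CPM (SD, n = 4) with DMSO and 17.4 ± 2.45 CPM with PF-9363 (log2 fold change −0.043, SE 0.12, edgeR adjusted p 0.759). With SETBP1-D868N, Mtap rose from 48.2 ± 1.34 to 64.2 ± 1.53 CPM (log2 fold change 0.41, SE 0.034, edgeR adjusted p 1.41e-06). The lincRNA Gm12606, on the strand of Cdkn2a and 1068 bases from it, went from 0.602 ± 0.272 to 1.74 ± 0.526 CPM with PF-9363 (log2 fold change 1.52, SE 0.42, edgeR adjusted p 0.00179), from at most 23 counts per library. With SETBP1-D868N it went from 0.307 ± 0.0717 to 0.647 ± 0.245 CPM (log2 fold change 1.07, SE 0.32, edgeR adjusted p 0.0151), from at most 61 counts. With PF-9363 the 2 inhibitor genes thus rose while Mtap did not pass the test.

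Cdkn2c encodes p18Ink4c and lies on chr4:109660876-109667189 (minus strand), on the same chromosome but far from the other pair. Its level was 49.1, 41.6, 50.5 and 49.2 CPM with DMSO and 9.46, 8.75, 5.44 and 5.95 CPM with PF-9363. This was the largest fall among the members (log2 fold change −2.67, SE 0.13, edgeR adjusted p 3.31e-16), opposite in direction to Cdkn2a and Cdkn2b. With luciferase it was at 36.8, 35.1 and 35.2 CPM and with SETBP1-D868N at 41.0, 40.1 and 41.8 CPM, higher in every SETBP1-D868N library (log2 fold change 0.20, SE 0.037, edgeR adjusted p 7.62e-04).

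Cdkn2d encodes p19Ink4d, on chr9:21288410-21291407 (minus strand), and had the most transcript per length of the 4 INK4 genes in every group but that of PF-9363. It fell in both comparisons. Its level was 57.5, 55.8 and 59.3 CPM with luciferase and 49.9, 45.6 and 46.7 CPM with SETBP1-D868N (log2 fold change −0.28, SE 0.040, edgeR adjusted p 1.09e-04). With DMSO it was at 61.6, 53.6, 60.7 and 66.6 CPM and with PF-9363 at 49.5, 47.7, 35.7 and 35.2 CPM. The 2 groups did not overlap, though PF-9363 libraries 1 and 2 came close to the lowest DMSO library (log2 fold change −0.52, SE 0.10, edgeR adjusted p 1.14e-04).

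Of the CIP/KIP genes, Cdkn1a encodes p21, a textbook target of p53, on chr17:29090976-29100727 (plus strand). Its level was 191, 185, 181 and 215 CPM with DMSO and 436, 392, 518 and 505 CPM with PF-9363, with no overlap (log2 fold change 1.26, SE 0.081, edgeR adjusted p 1.26e-11). It was lower with SETBP1-D868N than with luciferase, at 154, 147.5 and 160 CPM against 187, 180 and 178 CPM (log2 fold change −0.24, SE 0.034, edgeR adjusted p 9.53e-05). Trp53, which encodes p53, was not called with PF-9363 (77.8 ± 6.15 to 87.6 ± 9.62 CPM, log2 fold change 0.17, edgeR adjusted p 0.0539). It passed in 6 of 15 other fits, with log2 fold changes of up to 0.22 and an adjusted p as low as 0.0200, and under library-size scaling its log2 fold change was −0.064. Mdm2, another p53 target, rose from 78.4 ± 3.08 to 162 ± 7.64 CPM (log2 fold change 1.05, SE 0.064, edgeR adjusted p 9.87e-15). With SETBP1-D868N, Trp53 rose (log2 fold change 0.31, SE 0.026, edgeR adjusted p 1.60e-06), whereas Cdkn1a fell and Mdm2 did not pass the test (0.033, edgeR adjusted p 0.446).

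Cdkn1b encodes p27, on chr6:134920401-134925513 (plus strand), a protein whose amount is known to be set largely by degradation. With DMSO it was at 134, 138, 124 and 133 CPM and with PF-9363 at 126, 131, 132 and 111 CPM. The groups overlapped, and the log2 fold change of −0.084 had a 95% interval of −0.22 to 0.052 (edgeR adjusted p 0.252), so a 2-fold change lay outside the interval. Under library-size scaling it was called lower (−0.31, edgeR adjusted p 1.66e-04), since that scaling shifts the median gene of this comparison by −0.23. In the first experiment it was at 91.1, 101 and 103 CPM with luciferase and 91.2, 88.2 and 89.0 CPM with SETBP1-D868N. These groups overlapped through the luciferase 1 library, and the call (log2 fold change −0.14, SE 0.044, edgeR adjusted p 0.0224) was lost without luciferase 2, luciferase 3, SETBP1-D868N 2 or SETBP1-D868N 3 (−0.11 to −0.14) and under library-size scaling (−0.091).

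Cdkn1c encodes p57 from an imprinted gene on chr7:143458339-143461050 (minus strand) and was the scarcest member. It had 38, 56 and 34 counts with luciferase (0.566, 0.860 and 0.573 CPM) and 80, 85 and 55 counts with SETBP1-D868N (1.22, 1.30 and 0.828 CPM). SETBP1-D868N 3 lay below luciferase 2, so the groups overlapped (log2 fold change 0.74, SE 0.23, edgeR adjusted p 0.0198). The call was lost without luciferase 1, luciferase 3, SETBP1-D868N 1 or SETBP1-D868N 2 (0.61 to 0.67). In the second experiment it had 2, 6, 2 and 5 counts with DMSO and 2, 1, 0 and 2 with PF-9363, too few for a comparison, and the 0 in PF-9363 3 allowed up to 0.424 CPM.

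Among the D-type cyclins, Ccnd2 (chr6:127125162-127152193, minus strand), a cytokine-responsive cyclin, rose with PF-9363. It was at 94.3, 90.1, 75.0 and 103 CPM with DMSO and 280, 302, 386 and 353 CPM with PF-9363 (log2 fold change 1.87, SE 0.12, edgeR adjusted p 6.27e-08). Every PF-9363 library was above every DMSO library. In the first experiment it was at 168, 175 and 173 CPM with luciferase and 158, 154 and 165 CPM with SETBP1-D868N (log2 fold change −0.11, SE 0.031, edgeR adjusted p 0.00994). That call was lost without luciferase 2 (−0.099, edgeR adjusted p 0.0578) and under library-size scaling (−0.065, edgeR adjusted p 0.113). On the opposite strand, Gm43126 shares 372 exonic bases with Ccnd2, 3.95% of Ccnd2 exons. It rose too (9.98 ± 1.55 to 38.3 ± 5.01 CPM, log2 fold change 1.93, edgeR adjusted p 3.17e-14). Strand handling is not given in the sources used here, so reads of these 2 genes over the shared bases cannot be told apart.

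Ccnd3 (chr17:47505051-47599691, plus strand) had the most transcript of the 3 cyclins in the luciferase, SETBP1-D868N and DMSO libraries. It fell slightly in both comparisons. It was at 552, 556 and 551 CPM with luciferase and 509, 513 and 511 CPM with SETBP1-D868N (log2 fold change −0.11, SE 0.022, edgeR adjusted p 9.36e-04). With DMSO it was at 371, 363, 376 and 414 CPM and with PF-9363 at 290, 308, 292 and 299 CPM (log2 fold change −0.36, SE 0.059, edgeR adjusted p 3.94e-06). Bysl shares 361 bases with Ccnd3 on the opposite strand, 4.11% of Ccnd3 exons, where reads of Bysl and Ccnd3 cannot be told apart. Bysl was called higher with SETBP1-D868N (0.35, edgeR adjusted p 3.32e-06) and lower with PF-9363 (−0.21, edgeR adjusted p 0.00547).

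Ccnd1 (chr7:144929931-144939925, minus strand), the cyclin most often studied in epithelial tumours, was the lowest of the 3 throughout. It was at 37.1, 34.6 and 32.9 CPM with luciferase and 19.4, 22.2 and 21.0 CPM with SETBP1-D868N, a fall larger than that of any other member in this comparison (log2 fold change −0.74, SE 0.058, edgeR adjusted p 1.40e-06). Of all genes tested, 8.33% had a larger absolute change. With DMSO it was at 9.70, 8.36, 6.92 and 8.60 CPM and with PF-9363 at 6.06, 5.40, 9.79 and 6.93 CPM, where PF-9363 3 was the highest library of both groups. The log2 fold change was −0.27 with a 95% interval of −0.65 to 0.11 (edgeR adjusted p 0.181). Without PF-9363 3 it was called lower (−0.43, edgeR adjusted p 0.0393), as it was under library-size scaling (−0.50, edgeR adjusted p 0.0140). LTO1 shares 1100 bases with it on the opposite strand (23.4% of its exons) and was not called in either comparison.

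Levels were compared between genes per kilobase of exon (CPM per kb). Each length joins the exons of all annotated transcripts (21 for Ccnd3, 8 for Ccnd2 and 2 for Cdkn2a). The order here and the family shares below therefore depend on which transcripts the cells made, which the counts do not show. With luciferase the order was Ccnd3 (63.0), Cdkn1a (51.1), Cdkn2d (36.5), Cdkn1b (21.7), Ccnd2 (18.3), Cdkn2c (13.3), Ccnd1 (7.40), Cdkn2a (5.57), Cdkn2b (3.46) and Cdkn1c (0.327 CPM per kb), and the ranges of neighbours in this order did not overlap. With SETBP1-D868N only Cdkn2a (7.13) and Ccnd1 (4.43 CPM per kb) changed places, and again no neighbours overlapped. With DMSO, Cdkn1a (54.3) and Ccnd3 (43.4) led, ahead of Cdkn2d (38.5), Cdkn1b (29.1), Cdkn2c (17.7), Ccnd2 (9.62), Cdkn2a (6.31), Ccnd1 (1.78), Cdkn2b (1.63) and Cdkn1c (0.176 CPM per kb). Ranges overlapped there between Ccnd3 and Cdkn2d and between Ccnd1 and Cdkn2b. With PF-9363, Cdkn2a moved to the second place (90.3 CPM per kb) behind Cdkn1a (130). It was followed by Ccnd2 (35.1), Ccnd3 (33.9), Cdkn1b (27.4), Cdkn2d (26.7), Cdkn2b (8.87), Cdkn2c (2.75), Ccnd1 (1.50) and Cdkn1c (0.0675 CPM per kb), with overlapping ranges for the pairs Cdkn1a and Cdkn2a, Ccnd2 and Ccnd3, Cdkn1b and Cdkn2d, and Cdkn2c and Ccnd1. Transcripts of members of one family shared exact stretches of at most 23 bases.

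Within each family, the balance of transcripts differed between PF-9363 and DMSO more than between SETBP1-D868N and luciferase, given here as shares of the family's CPM per kb with no test. Cdkn2a made up 9.89% ± 1.74 (SD, n = 4) of INK4 transcript with DMSO and 69.8% ± 5.80 with PF-9363. Over the same libraries Cdkn2d went from 60.0% ± 1.12 to 21.2% ± 5.61 and Cdkn2c from 27.6% ± 1.35 to 2.20% ± 0.769. The summed INK4 level was 64.2 ± 4.62 CPM per kb with DMSO and 129 ± 13.5 with PF-9363. Among D-type cyclins, Ccnd2 went from 17.5% ± 1.53 to 49.6% ± 3.52 and Ccnd3 from 79.2% ± 1.86 to 48.3% ± 3.89, while the summed level was 54.8 ± 3.52 and 70.5 ± 5.37 CPM per kb. Cdkn1a was 64.9% ± 1.78 of CIP/KIP transcript with DMSO and 82.4% ± 2.61 with PF-9363. With SETBP1-D868N the summed D-type cyclin level was 79.6 ± 0.605 CPM per kb against 88.7 ± 0.557 with luciferase (n = 3), and Ccnd1 made up 5.57% ± 0.359 of it against 8.34% ± 0.487.

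**Figure D3:**
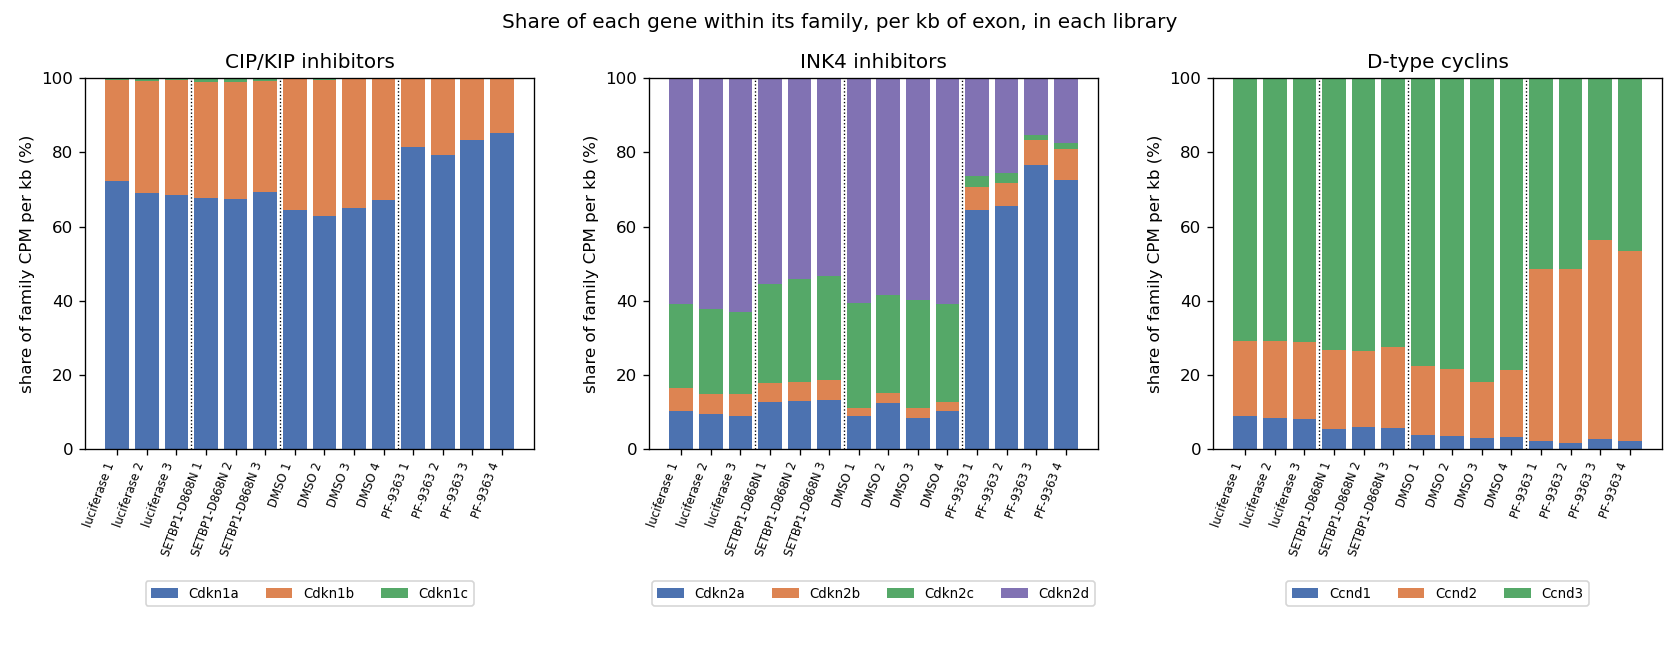
Share of each gene in the summed CPM per kb of its family (y axis, percent from 0 to 100) in every library (x axis), for CIP/KIP inhibitors, INK4 inhibitors and D-type cyclins. Dotted lines separate the 4 groups. Cdkn2a takes 64.4% to 76.5% of INK4 transcript in the PF-9363 libraries and 8.42% to 12.3% in the DMSO libraries.

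The PF-9363 libraries were not alike in these genes. Libraries 3 and 4 were higher than libraries 1 and 2 in Cdkn1a, Cdkn2a, Cdkn2b and Ccnd2 and lower in Cdkn2c and Cdkn2d. In the same libraries the summed level of 12 proliferation genes was 733, 807, 487 and 496 CPM in PF-9363 libraries 1 to 4, against 3212 to 3431 CPM with DMSO, and the part of this difference in the members' values was not tested. Each of the 7 calls of members with PF-9363 held without any single library.

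The partners of these genes were counted in lists chosen for their roles. The counts of these and of the marker lists stand beside high shares over all genes tested. With PF-9363, 36.6% of genes were called higher, 39.4% lower and 33.9% at 2-fold or more. With SETBP1-D868N, 24.5% were called higher, 22.7% lower and 3.82% at 2-fold or more. All 10 of 10 CDK partners fell with PF-9363 (median −1.33 on the log2 scale, against −0.038 for all genes) and 6 at least 2-fold. Cdk4 and Cdk6, the kinases bound by D-type cyclins, fell by less than 2-fold, Cdk4 from 217 ± 12.6 to 142 ± 2.46 CPM (log2 fold change −0.61) and Cdk6 from 373 ± 29.5 to 222 ± 11.5 CPM (−0.75). Cdk2, the partner of E-type cyclins, had a log2 fold change of −1.42 and Cdk1, the mitotic kinase, one of −2.76. Those of the cyclins Ccne1, Ccne2 and Ccna2 were −2.11, −2.52 and −2.45. In the CDK-activating complex, Mnat1 (−1.23) fell more than Cdk7 (−0.43) and Ccnh (−0.41). None of these 10 genes had an edgeR adjusted p above 4.33e-04.

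With SETBP1-D868N, 6 of the 10 CDK partners were called higher and 0 lower (median log2 fold change 0.11, against 0.0043 for all genes). Cdk4 rose from 259 ± 0.495 to 320 ± 5.43 CPM (log2 fold change 0.31, edgeR adjusted p 1.02e-06), in the libraries where the INK4 genes Cdkn2a and Cdkn2c rose and Cdkn2d and Ccnd1 fell. Cdk6 had a log2 fold change of 0.33 (edgeR adjusted p 0.0203), and its call was lost in 4 of 13 other fits, among them those without luciferase 2, luciferase 3 or SETBP1-D868N 2. Cdk7 (0.19), Ccnh (0.22), Cdk1 (0.10) and Ccna2 (0.076) were the others called higher. The call of Cdk1 was lost without luciferase 3, and that of Ccna2 in 6 of 13 other fits, among them those without any 1 luciferase library, without SETBP1-D868N 2 and under DESeq2.

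Downstream of the D-type cyclins, 13 pocket proteins, E2F factors and their DP partners were examined. With PF-9363, 2 were called higher (Rb1, log2 fold change 0.29, and E2f3, 0.32) and 9 lower, 5 of them at least 2-fold (median −0.59). The Rb1 and E2f3 calls were lost under library-size scaling (0.060 and 0.094). The 5 largest falls were those of Tfdp2 (−2.60), the repressor factors E2f8 (−2.25) and E2f7 (−2.22), the RB relative Rbl1 (−1.15) and Tfdp1 (−1.09), with edgeR adjusted p-values of at most 6.13e-05. With SETBP1-D868N, 7 were called higher and 3 lower, all under 2-fold (median 0.14). Of these calls, that of Rbl2 was lost in 8 of 13 other fits (without any 1 luciferase library, SETBP1-D868N 1 or SETBP1-D868N 2 among them). Rb1 lost its call in 5 (among them those without luciferase 1, SETBP1-D868N 1 or SETBP1-D868N 3) and E2f5 in 3 (without luciferase 2, SETBP1-D868N 2 or SETBP1-D868N 3). Tfdp2 (0.32), E2f4 (0.23), E2f6 (0.21) and Tfdp1 (0.18) were among those higher and E2f2 (−0.28) among those lower, with edgeR adjusted p-values of at most 6.93e-04.

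Of 14 upstream regulators and turnover factors, 5 were called higher with PF-9363 and 5 lower. The lower call of Foxo4 (log2 fold change −0.21) was lost in 7 of 15 other fits, among them those that left out library 3 or 4 of DMSO or library 1, 2 or 4 of PF-9363. The higher call of Cbx7 (0.49) was lost under library-size scaling (0.26). Bmi1, a Polycomb gene known as a repressor of the Cdkn2a locus, rose from 30.1 ± 2.28 to 120 ± 9.32 CPM (log2 fold change 1.99, SE 0.079, edgeR adjusted p 4.71e-19) in the libraries where Cdkn2a rose. Ezh2, the methyltransferase of another Polycomb complex, fell from 86.2 ± 9.60 to 23.4 ± 4.84 CPM (−1.87, SE 0.12, edgeR adjusted p 2.72e-11). Myc, which encodes an activator of growth genes that represses Cdkn1a and Cdkn2b, fell from 177 ± 6.10 to 30.2 ± 2.90 CPM (−2.55, SE 0.075, edgeR adjusted p 4.94e-22). Skp2 and Cks1b, which mark p27 for degradation, fell too (log2 fold changes −1.73 and −2.18, edgeR adjusted p 7.90e-12 and 2.28e-04). Fbxw7, which does so for cyclin E and MYC, and Foxo3, a factor known to activate inhibitor genes, rose by 1.28 and 0.73 (edgeR adjusted p 2.63e-10 and 5.02e-09).

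With SETBP1-D868N, 6 of these 14 genes were called higher and 3 lower. Myc rose from 173 ± 3.85 to 241 ± 4.68 CPM (log2 fold change 0.48, SE 0.028, edgeR adjusted p 1.03e-07). Ezh2 and Bmi1 rose by 0.21 and 0.23 (edgeR adjusted p 1.47e-04 and 0.00132), and Skp2 and Cks1b by 0.20 and 0.18. Foxo1 (−0.55), Foxo3 (−0.26) and Fbxw7 (−0.14) fell, the last with a call that was lost in 1 of 13 other fits. Proliferation genes were called higher in 9 of 12 cases and lower in 0, with Mcm2 at 0.28 and Mcm6 at 0.26, and the call of Plk1 (0.090) was lost in 6 of 13 other fits, among them those without luciferase 2, luciferase 3, SETBP1-D868N 2 or SETBP1-D868N 3. With PF-9363 all 12 were called lower at 2-fold or more, from −1.18 for Pcna to −3.97 for Mcm6.

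**Figure D4:**
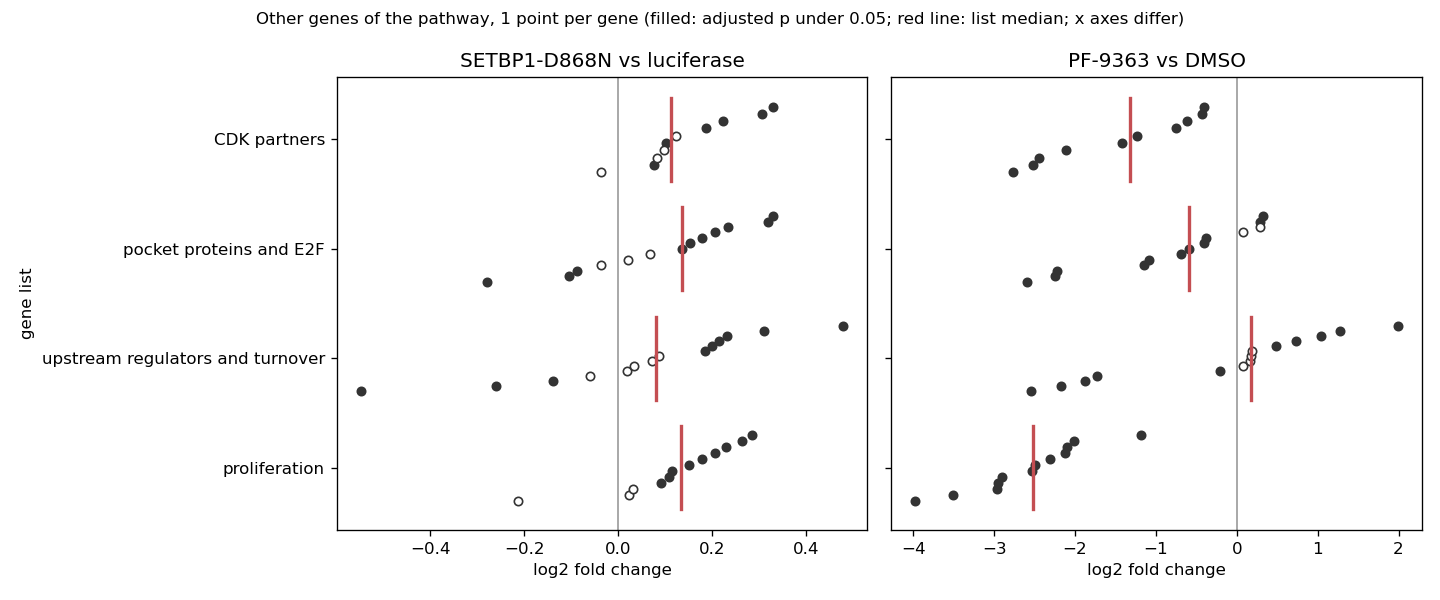
Log2 fold changes (x axis, different scales) of the genes of 4 pathway lists (y axis), 1 point per gene, filled where the adjusted p was under 0.05, with a red line at the list median. With PF-9363 the CDK partners and proliferation genes all lie below 0 (medians −1.33 and −2.51), while with SETBP1-D868N their medians are 0.11 and 0.13.

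Markers of the cell types such cultures can hold moved in both comparisons. The summed level of 10 monocyte, macrophage and dendritic genes was 532 to 646 CPM with DMSO and 3783 to 4602 CPM with PF-9363 (10 of 10 called higher). That of 10 mast cell and basophil genes was 1238 to 1583 CPM with DMSO and 4819 to 5799 CPM with PF-9363 (9 called higher and 0 lower). For 10 promyelocyte and neutrophil genes the sums were 19147 to 22443 and 16615 to 18085 CPM (1 higher, 6 lower). Within that list the primary granule genes Elane (1450 ± 70.4 to 1.74 ± 1.49 CPM), Mpo (2315 ± 304 to 6.34 ± 4.03 CPM) and Prtn3 (1051 ± 86.8 to 7.29 ± 6.25 CPM) fell. Camp (log2 fold change −2.15), Ctsg (−1.63) and Cebpe (−1.29) were called lower as well. Ltf was the only gene of the list called higher (1237 ± 45.9 to 2678 ± 201 CPM). S100a8, S100a9 and Ngp, which make up most of the sum, were not called. The sums of 8 erythroid and megakaryocyte genes were 46.5 to 54.96 and 230 to 255 CPM (3 of 4 tested higher). The sums of 6 blood cell and progenitor genes were 813 to 873 and 1567 to 1694 CPM (4 higher, 1 lower), and those of 6 stromal and endothelial genes 519 to 559 and 385 to 423 CPM (1 higher, 1 lower, with Col1a2 and Cxcl12 at 0 counts). With SETBP1-D868N the monocyte sum was 1192 to 1374 CPM against 2165 to 2271 CPM with luciferase (0 higher, 10 lower). The promyelocyte and neutrophil sum was 17260 to 19793 against 25144 to 26166 CPM (4 higher, 6 lower). For the mast cell and basophil list the sum was 6267 to 6389 against 5763 to 5976 CPM (5 higher, 5 lower). Within that list Tpsb2 (460 ± 38.1 to 126 ± 8.56 CPM), Cpa3, Cma1, Fcer1a and Mitf were lower. Prss34 (855 ± 6.93 to 1713 ± 38.2 CPM), Mcpt8, Ms4a2, Gata2 and Hdc were higher. In that experiment the blood cell and progenitor sum was 930 to 931 against 1129 to 1145 CPM (2 higher, 4 lower). The erythroid sum was 338 to 362 against 318 to 334 CPM (3 higher, 2 lower). The stromal sum was 421 to 440 against 425 to 429 CPM (2 higher, 0 lower), most of it from Pecam1 (409 ± 9.19 against 410 ± 2.17 CPM). The monocyte sum and the blood cell and progenitor sum thus moved in the direction of Cdkn1a, Cdkn2b and Ccnd2 in both comparisons. Most of the latter sum came from Ptprc and Spi1, which moved in that direction, as did Kit. The other genes of that list did not. Cd34 was higher with SETBP1-D868N and not called with PF-9363, Cd48 was higher in both comparisons and Flt3 lower in both. The other marker sums given for both comparisons did not move in the direction of Cdkn1a, Cdkn2b and Ccnd2 in both. Single genes of other lists went different ways. Ly6g, Ltf, Cpa3, Tpsb2, Fcer1a, Cma1, Mitf and Pf4 moved in that direction in both comparisons. Elane, Mpo, Prtn3, Ctsg and Nkg7 moved the opposite way in both. Prss34, Ms4a2, Gata2, Hdc, Itga2b and Pdgfrb were higher in both comparisons, and Camp and Cebpe were lower in both. The part of any of these markers' cell types in the members' changes was not tested.

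For the 5 members changed at least 2-fold, the genes with the most similar pattern over the 14 libraries were found, by the root mean square difference of log2(CPM + 0.5) centred on each experiment, among 9564 genes. Cdkn1a was nearest to Man1a (0.051), Itgb1 (0.060) and Atp6v1g1 (0.062), against 0.49 for the spread of Cdkn1a around its own means. Cdkn2a was nearest to Ralgds (0.22), the chemokine gene Ccl7 (0.24) and Cd200r4 (0.26), against 1.43 for its own spread. With PF-9363 their log2 fold changes were 3.53, 3.89 and 3.19. With SETBP1-D868N they were −0.14, −0.14 and 0.20, against 0.35 for Cdkn2a, so only Cd200r4 had its sign there. Cdkn2b was nearest to the chemokine gene Ccl6 (0.087), Ttyh2 (0.091) and Cd9 (0.093). Cdkn2c was nearest to Bphl (0.091), the nuclear pore gene Nup107 (0.091) and Hells (0.095), which encodes a chromatin remodeller. Ccnd2 was nearest to the stress-response gene Sesn2 (0.085), Pdlim5 (0.086) and Blcap (0.095). These are descriptions of likeness, and the distances of the members cannot be ranked against each other, since a larger change leaves room for a larger distance.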

How the data were processed

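For each experiment the authors deposited a table of raw counts, whole numbers by gene symbol with a column per library. The submitters' processing notes name STAR, DESeq2 and the build GRCm38 (mm10), with no role. The counting program, annotation, strand handling and duplicate removal are not given in the sources used here. Libraries came from 500 ng of RNA with a Watchmaker mRNA kit (first experiment) or from 100 ng at Novogene (second), per the labels' protocols.

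Everything further was computed here. Each experiment was fitted separately with edgeR 4.0.16 in R 4.3.3: filterByExpr (minimum count 10, minimum total 15), TMM scaling, glmQLFit with robust estimation and glmQLFTest on group. P-values were adjusted by Benjamini-Hochberg over all genes tested and called under 0.05. The SE is the absolute log2 fold change over the square root of F. Lengths and loci came from GENCODE M21 (exon union), promoters from RefSeq. The test was checked on simulated counts. Alternatives were RLE or library-size scaling, 2 other filters, DESeq2 1.42.0, limma-voom (limma 3.58.1), a replicate block and each library left out. The 10 genes, the pathway and marker lists and the tests were chosen with earlier results of these data known. Named genes were all members, pathway genes called in both comparisons or at least 2-fold in 1, and the 3 most similar genes per member changed 2-fold. Trp53, Foxo1, Foxo4, Cbx7, Rbl2, E2f5, Zbtb17, Ambra1, Mtap, Gm12606, single marker genes and the genes overlapping members fall outside this rule and were chosen after their values were seen. Sums over the lineage-panel markers are not reported here.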

Additional observations from a re-analysis of the deposited data

Results flagged for a closer look

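Among the 20 sets of 4 libraries examined (10 genes with DMSO and with PF-9363), 1 held a library set apart from the others. Cdkn2c was at 41.6 CPM in DMSO 2 and at 49.1 to 50.5 CPM in the other DMSO libraries, a gap of 0.843 of the group's range that is just above Dixon's limit for 4 libraries. Chance alone sets apart about 1 in 20 such groups.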

How the results depend on the processing

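All 7 members called with PF-9363 kept their direction and call in all 15 other fits, with log2 fold changes of 3.60 to 3.91 for Cdkn2a, 2.20 to 2.53 for Cdkn2b, 1.63 to 1.94 for Ccnd2, 1.03 to 1.35 for Cdkn1a and −2.89 to −2.55 for Cdkn2c. With SETBP1-D868N, 6 members (Ccnd1, Ccnd3, Cdkn1a, Cdkn2a, Cdkn2c and Cdkn2d) kept theirs in all 13. Library-size scaling left 4 members called lower with SETBP1-D868N (Cdkn1b, Cdkn2b and Ccnd2 lost) and made 5 lower with PF-9363 (Cdkn1b and Ccnd1 added). It shifted the median gene by 0.049 and −0.23, and gave 4906 genes higher and 2996 lower with SETBP1-D868N and 3774 and 6653 with PF-9363. Leaving out 1 library gave 5 to 6 members lower and 2 to 3 higher with SETBP1-D868N, and 3 to 4 lower and 4 higher with PF-9363. Same-numbered libraries did not deviate together (r −0.179 to −0.0453 and −0.0382 to 0.0111, 0 of 6 and 0 of 8 best with their own number). With the replicate block, 6 members were lower with SETBP1-D868N (Cdkn2b lost, −0.26, edgeR adjusted p 0.0543), the pathway calls of Cdk6, Ccna2, Rb1, Rbl2 and Plk1 were lost as well, 3416 genes were higher and 3224 lower, and with PF-9363 the members stayed at 4 and 3, with 4885 and 5239 genes. Uncalled pathway genes changed sign under library-size scaling: Cdk2 (0.012) and E2f7 (0.012) with SETBP1-D868N, and Rbl2 (−0.15), Trp53 (−0.064), Zbtb17 (−0.048), Foxo1 (−0.16) and Ambra1 (−0.043) with PF-9363. Sign changes also came from leaving out 1 library. With SETBP1-D868N these fits gave −0.013 (without SETBP1-D868N 2) to 0.040 for Rbl1, −0.0018 (without luciferase 1) to 0.13 for Cbx7, −0.0065 (without SETBP1-D868N 1) to 0.036 for Foxo4 and −0.026 (without SETBP1-D868N 3) to 0.080 for Top2a. With PF-9363 they gave −0.055 (without DMSO 3; −0.039 without PF-9363 4) to 0.20 for Foxo1. The cause was not tested. Depth limits Cdkn1c in the second experiment, at no more than 6 counts per library.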
